A study of Mus musculus with 5 samples.

Results

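Protocadherin genes were examined for the repressive histone mark H3K27me3 in cultured mouse dermal fibroblasts. They were taken by symbol, as the autosomal protein-coding genes of the GRCm38 annotation that begin with Pcdh, and there were 67 of them among 20807 autosomal protein-coding genes. Of these, 57 were clustered genes on chromosome 18, with 14 in the Pcdha cluster, 22 in the Pcdhb cluster and 21 in the Pcdhg cluster. The other 10 were single genes, whose symbol is Pcdh followed by a digit. Both Pcdha11 records of the annotation carry that symbol and were counted separately.

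In ChIP-seq an antibody pulls down fragments of chromatin that bear H3K27me3, and a peak is a segment of the genome where the sequenced fragments are denser than in its surroundings. The series compares dermal fibroblasts of WT skin labelled E14 with those labelled E17, with 2 libraries at each stage, to follow the mark while dermal fibroblast progenitors differentiate. The study's methods describe C57BL/6 mice and place the later stage at E18.5, and they state that the dermal cells were expanded in culture before the assay, so the cells are cultured dermal preparations and not tissue taken directly from the animal. Nothing in the labels says that the libraries of a stage came from separate litters. The peak lists held 21546 and 16574 peaks at E14 and 10429 and 7107 peaks at E17 (replicates 1 and 2 in that order, as in every list of 4 values here). The peaks covered 52.8 and 32.1 Mb of the genome at E14, and about 20 and 14.3 Mb at E17. Read counts are not part of the lists, so depth could not be read from them. The study's methods state that E18.5 samples of WT skin and of a Kdm6b knockout were subsampled to the read depth of other samples. It is not clear whether this covers the E17 libraries used here. A gene without a peak is a gene below the threshold of that list.

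None of the 9 dermal fibroblast markers (Col1a1, Col1a2, Col3a1, Pdgfra, Pdgfrb, Twist2, Vim, Lum and Dpt) had a peak at its start sites in any library. Of all autosomal protein-coding genes, 73.4% had no peak in any library either. Of 16 markers of other cell types, 9 had a peak in both E14 libraries and 7 in both E17 libraries. The shares of all autosomal protein-coding genes were 20.2% and 12.7%. The markers without a peak included Krt5 and Krt14 of keratinocytes, Pecam1 and Cdh5 of endothelium, Mitf of melanocytes, and Ptprc and Spi1 of immune cells. Whether cells of those types were present was not tested, since the lists hold no expression values.

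Protocadherins are the largest group of the cadherin superfamily, which are calcium-dependent adhesion proteins of the cell surface. The clustered genes are known for their use in neurons. Each variable exon has its own promoter and encodes the extracellular, transmembrane and proximal cytoplasmic part of a protein, and in the Pcdha and Pcdhg clusters it is spliced to shared constant exons. Neurons choose among the alternate promoters, in part at random, and so carry different sets of adhesion proteins, whereas the C-type genes at the end of the Pcdha and Pcdhg clusters are used more generally. The single genes, many of them of the δ group, each have their own promoter and act in cell adhesion, cell sorting and axon guidance. H3K27me3 is deposited by Polycomb repressive complex 2, often over CpG-rich start sites of developmental genes, and is removed by demethylases such as Kdm6b.

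The RefSeq promoter table (build GRCm38.p6, 250 bases before to 50 bases after the start) held 8 of the 10 single genes. The promoters of 4 of them are shown here because they differ in how peaks lay around them. Pcdh8 (chr14:79771263-79771562, minus strand) lay wholly inside a peak in all 4 libraries. Pcdh17 (chr14:84443313-84443612, plus strand) was left free of peaks in all 4 libraries while peaks lay on both sides of it. Pcdh20 (chr14:88471347-88471646, minus strand) lay inside a peak in E14 replicate 1 and in none of the other libraries. Pcdh18 (chr3:49757267-49757566, minus strand) had no peak near it in any library. Each is written 5′ to 3′ on the strand of the gene, and capitals mark every CG dinucleotide.
Pcdh8: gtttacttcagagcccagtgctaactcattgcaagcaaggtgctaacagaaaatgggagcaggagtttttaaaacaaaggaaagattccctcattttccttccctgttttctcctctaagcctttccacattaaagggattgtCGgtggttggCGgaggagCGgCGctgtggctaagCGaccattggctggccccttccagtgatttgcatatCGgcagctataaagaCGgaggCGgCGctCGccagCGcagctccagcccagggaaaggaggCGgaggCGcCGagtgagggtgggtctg
Pcdh17: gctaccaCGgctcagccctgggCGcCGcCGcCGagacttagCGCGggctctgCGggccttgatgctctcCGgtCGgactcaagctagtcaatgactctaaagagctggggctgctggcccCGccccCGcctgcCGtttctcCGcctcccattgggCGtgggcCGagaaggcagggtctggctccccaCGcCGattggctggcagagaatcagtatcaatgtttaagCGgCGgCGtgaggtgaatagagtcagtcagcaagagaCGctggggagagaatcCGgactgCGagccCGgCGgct
Pcdh20: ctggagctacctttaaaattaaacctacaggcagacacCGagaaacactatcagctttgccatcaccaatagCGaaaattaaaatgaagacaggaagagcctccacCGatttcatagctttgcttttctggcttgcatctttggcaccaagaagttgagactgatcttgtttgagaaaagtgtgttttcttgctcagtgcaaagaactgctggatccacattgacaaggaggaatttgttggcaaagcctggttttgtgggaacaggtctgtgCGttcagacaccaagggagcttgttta
Pcdh18: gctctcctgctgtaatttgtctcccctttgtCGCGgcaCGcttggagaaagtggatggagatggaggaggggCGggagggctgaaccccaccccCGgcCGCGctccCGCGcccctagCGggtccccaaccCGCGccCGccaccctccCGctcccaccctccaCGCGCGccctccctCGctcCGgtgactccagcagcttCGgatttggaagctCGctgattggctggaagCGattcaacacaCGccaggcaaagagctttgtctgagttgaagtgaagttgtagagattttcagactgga

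These promoters held 14, 26, 4 and 23 CG dinucleotides in the order shown, where the 32851 promoters of the table had a median of 7 and 94.6% held at least 1. Pcdh17 and Pcdh18 thus carried similar numbers of CG with and without peaks nearby, and Pcdh20 had fewer than the median promoter. CG reads the same on both strands, so a single search covers both.

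A gene was called marked in a library when a peak overlapped by at least 1 bp the 3000 bp on either side of any of its annotated start sites, and marked at a stage when this held in both libraries. Single genes were mostly marked at E14, and clustered genes mostly were not. Of the 10 single genes, 8 were marked in each E14 library and 5 in each E17 library, where the share of all autosomal protein-coding genes was 25.3% and 21.1% at E14 and 15.8% and 13.4% at E17. Of the 57 clustered genes, 7 and 9 were marked in the E14 libraries and 1 in each E17 library, which is 12.3%, 15.8%, 1.75% and 1.75%. Both libraries of a stage called 8 single genes at E14 and 5 at E17, and 7 and 1 clustered genes, where 20.2% and 12.7% of all genes were called. No protocadherin was marked at E17 without a peak at E14, and 0.0961% of all genes were. With peaks of at least 1000 bp, both libraries of a stage called 5 single genes at E14 and 5 at E17, and 4 and 1 clustered genes. With a −log10 q-value of at least 5 they called 5 and 4 single genes, and 1 and 0 clustered genes. The shares of all genes under these stricter filters are not given here, so these counts have no background beside them.

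**Figure D1:**
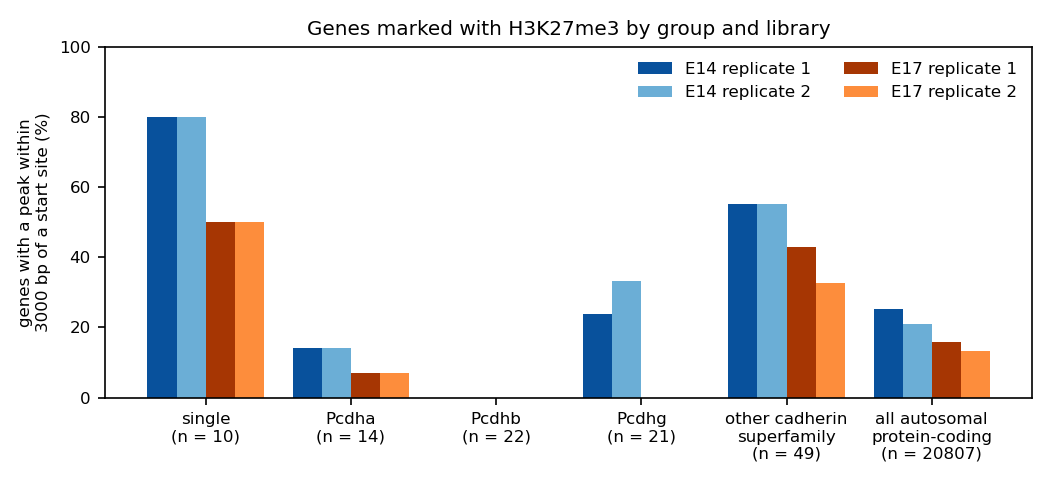
Bars give the percentage of genes in each group (x axis, with the number of genes) that had an H3K27me3 peak within 3000 bp of a start site (y axis), for each of the 4 libraries. Single genes stand at 80% in both E14 libraries and 50% in both E17 libraries, Pcdhb genes at 0 throughout, and Pcdhg genes at 0 in both E17 libraries.

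In both E14 libraries 15 protocadherins were marked, 22.4% of the 67 against 20.2% of all genes. Of these 15, 9 had no peak in either E17 library, against 23.4% of all genes marked at E14. Counted over all members rather than over those marked at E14, this is 13.4% of the 67 against 4.72% of all genes. A peak was present in all 4 libraries for 6 of the 15 protocadherins, where 62.3% of all genes marked at E14 and 12.6% of all genes had one. The 9 were 6 of the 7 clustered genes and 3 of the 8 single genes. The 6 and 3 fell to 3 and 1 with lists of equal number of peaks and to 3 and 0 with peaks of at least 1000 bp. With a −log10 q-value of at least 5 none of the 9 was still marked at E14. Shares of all genes under these settings are not given here. Neighbouring clustered genes share peaks, so the 6 are not separate observations. Among the 513 genes of chromosome 18, which hold all the clustered genes, 38 of the 102 marked at E14 (37.3%) had no peak at E17. The 102 include the 7 clustered genes, Pcdh1 and Pcdh12, and the 38 include the 6 and Pcdh12.

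Pcdh8 and Pcdh17 held the strongest peaks among the protocadherins. The measure used for strength is the fold enrichment, the ratio of a peak's pileup to its local background, and because the lists differ in size it is also given as a percentile within its own list. The covered length is the number of bases of a gene's start site windows that lie inside peaks.

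Pcdh8 (chromosome 14, 79766775 to 79771312, minus strand) is a δ protocadherin known from paraxial mesoderm and synapses. Its covered length was 6109 bp in every library, which is the whole of its windows. The fold enrichment was 7.76, 7.77, 5.30 and 5.17, at percentiles 99.2, 99.1, 97.9 and 96.3. The peak itself was 12162, 11488, 9458 and 7898 bp wide and contained the start site each time, so its width was lower at E17 without overlap of the stages although the covered length could not show it. The peak took in all 2625 bp of the longest coding exon in every library.

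Pcdh17 (chromosome 14, 84443563 to 84539002, plus strand), a δ protocadherin of axons and synapses, had a covered length of 7964, 7435, 6269 and 6166 bp. The fold enrichment of its main peak was 7.49, 8.39, 5.88 and 5.82, at percentiles 99.0, 99.6, 99.5 and 99.4, so it stayed at or above percentile 99.0 in every list. This peak began 0.749, 0.824, 0.443 and 0.444 kb downstream of the most upstream start site and was 6321, 5993, 5380 and 5038 bp wide. It contained the other annotated start site, at 84448507, in all 4 libraries. A weaker peak of 2566, 1442, 889 and 1128 bp lay upstream and ended more than 1 kb before the most upstream start. The promoter printed above, with its 26 CG, fell in the gap between them in all 4 libraries. The longest coding exon part of 2559 bp lay wholly inside the main peak each time.

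Pcdh10 (chromosome 3, 45378398 to 45435623, plus strand), a δ protocadherin that acts in axon growth and cell sorting, was like Pcdh17 in the place of its peak. The peak began 351, 314, 544 and 548 bp downstream of the most upstream start site. Its covered length was 3878, 4186, 2887 and 3017 bp, with a fold enrichment of 7.06, 7.14, 4.97 and 4.64 at percentiles 98.6, 98.2, 95.9 and 88.7. Both E17 libraries lay below both E14 libraries in length and in rank. The coding exon of 2688 bp was covered to 100%, 100%, 95.8% and 100%.

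Pcdh1 (chromosome 18, 38185914 to 38212053, minus strand) lies outside the clusters and is known from epithelia. Its covered length was 8393, 8288, 6706 and 6223 bp, with percentiles of 96.4, 93.0, 94.3 and 83.4. At E14 a peak of 12616 and 11386 bp ran across the most upstream start site. At E17 the same stretch was held by 3 peaks of 4865, 3296 and 225 bp in replicate 1 and by 2 peaks of 5755 and 1391 bp in replicate 2. The covered length was lower at E17 without overlap, and the domain was broken up in both E17 libraries.

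Pcdh15 (chromosome 10, 73099342 to 74649737, plus strand), part of the tip link of sensory hair cells, spans 1550 kb and has 14 annotated start sites. The peak lay at its most upstream start and had a covered length of 4973, 4422, 4249 and 3866 bp. Its percentiles were 89.1, 83.3, 80.6 and 62.1, the lowest of the 5 single genes that were marked in all 4 libraries. The E17 values were below the E14 values in both measures.

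**Figure D2:**
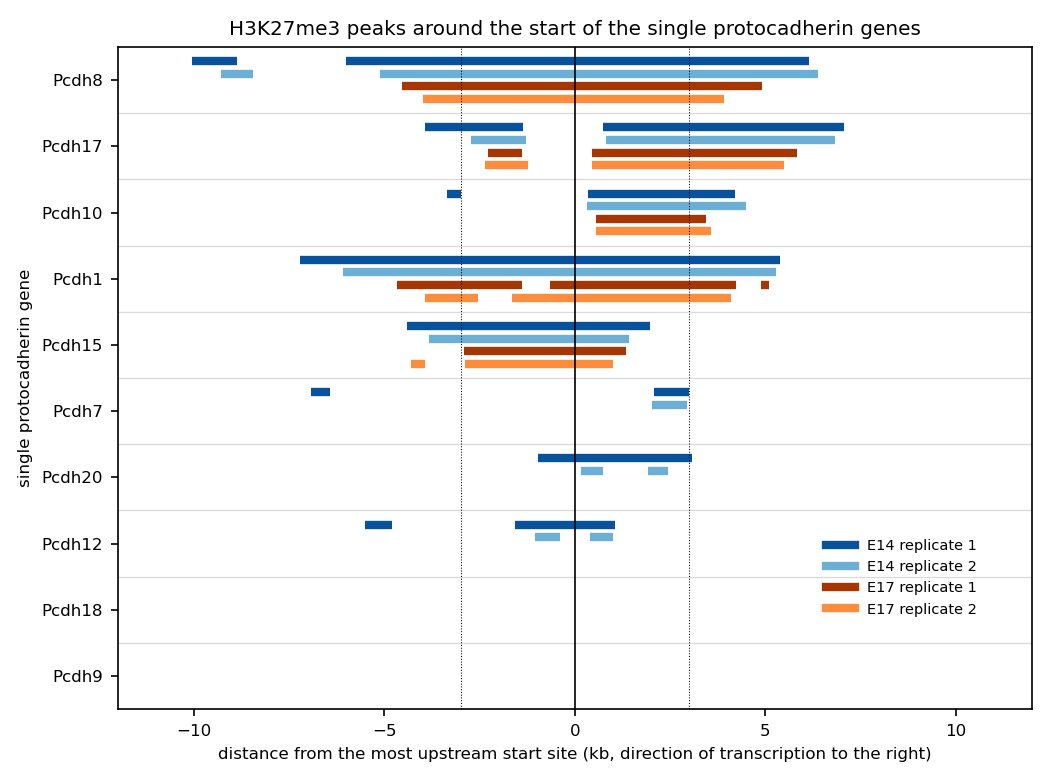
Each bar is an H3K27me3 peak, drawn to scale as the distance from the most upstream start site of the gene (x axis, kb, transcription to the right, cut at the edges of the axis), with the 10 single genes as rows and the 4 libraries in colour. Dotted lines mark 3 kb on either side of the start. Peaks of Pcdh8, Pcdh1 and Pcdh15 run across the start in all 4 libraries, the widest peaks of Pcdh17 and Pcdh10 begin downstream of it, and the bottom 5 genes have none at E17.

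There were 3 single genes marked at E14 and without a peak at E17, and all had lower percentiles at E14 than the 5 above. Pcdh7 (chromosome 5, 57717967 to 58133230), a δ protocadherin of many tissues, had a covered length of 903, 917, 0 and 0 bp. Its peaks lay about 2 to 3 kb downstream of the most upstream start, inside the 3174 bp coding exon, and covered 28.4% and 28.9% of it. They contained another of its 7 annotated start sites, at 57720123, in both E14 libraries. The fold enrichment was 3.48 and 3.55, at percentiles 70.1 and 52.6. The peaks of the E14 replicates overlapped for most of their length.

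Pcdh20 (chromosome 14, 88464743 to 88471396), a protocadherin of the nervous system, had 4031, 1134, 0 and 0 bp covered at percentiles 43.3 and 46.7. In replicate 1 a peak of 4048 bp crossed the start, and in replicate 2 peaks of 589 and 545 bp lay downstream of it, so the printed promoter was inside a peak in replicate 1 alone. Pcdh12 (chromosome 18, 38267089 to 38284402), an endothelial protocadherin, had 2628, 1264, 0 and 0 bp covered at percentiles 75.4 and 70.4. Its peaks also fell within 3000 bp of a start site of Rnf14, a ubiquitin ligase gene, and no other single gene shared a peak with a gene of another family. Here the E14 replicates differed in length by more than 2-fold for both genes.

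Pcdh18 (chromosome 3, 49743296 to 49757325) and Pcdh9 (chromosome 14, 93013410 to 93890679), both δ protocadherins, had no peak in any library. The nearest peak to a start site of Pcdh18 was 375, 1294, 1642 and 2334 kb away. For Pcdh9 it was 210, 2626, 2627 and 2627 kb away. No peak lay anywhere in the 877 kb of the Pcdh9 gene or in the Pcdh18 gene.

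Of the 8 single genes marked at E14, 7 had a lower covered length in both E17 libraries than in both E14 libraries, where 83.9% of all genes marked at E14 did. Pcdh8, whose windows were full, was the exception. The median decrease of the 5 genes marked in all 4 libraries was 19.2%, with a range of 0 to 26.8%. For all 2613 genes marked in all 4 libraries the median was 37.3%, with quartiles of 19.2% and 54.9%. Over the start site windows of all single genes together, the covered length was 38879 and 33755 bp at E14 and 26220 and 25381 bp at E17, or 36317 ± 3623 bp and 25800.5 ± 593 bp (SD, n = 2). The decrease of 29.0% was larger than the spread between replicates, and the exact permutation test, two-sided, gave p = 0.333, the smallest value that 2 against 2 libraries allow. Over the windows of all autosomal protein-coding genes the covered length decreased by 46.1%.

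**Figure D3:**
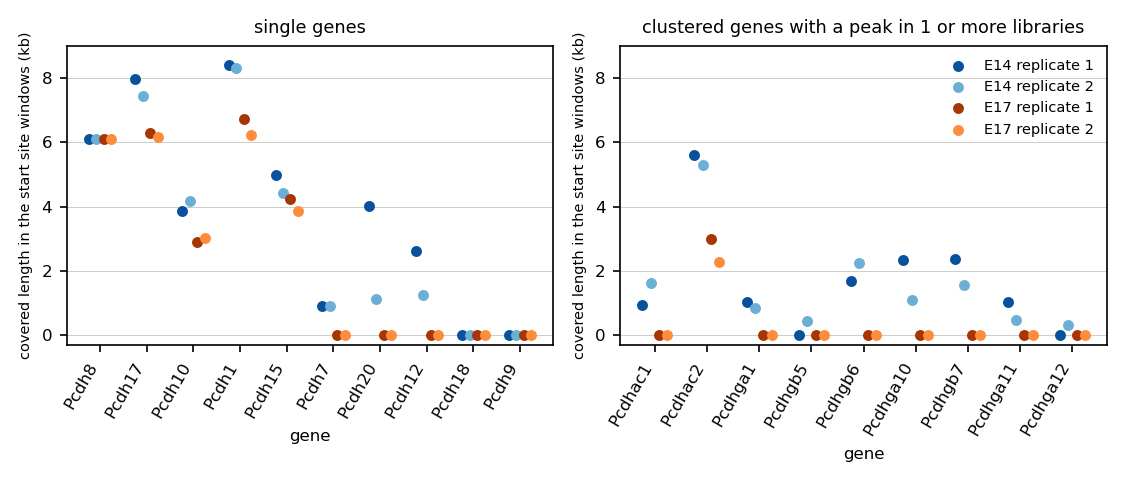
Points give the covered length, the bases of the start site windows that lie inside peaks (y axis, kb), in each of the 4 libraries (colour) for the single genes (left) and the clustered genes with a peak in at least 1 library (right). Among single genes 5 keep most of their length at E17, 3 with peaks at E14 stand at 0 at E17 and 2 stand at 0 in every library, and among clustered genes Pcdhac2 alone is above 0 at E17.

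Peaks lay on both sides of the most upstream start for some single genes but not for all. Within 3000 bp of it, Pcdh8, Pcdh17, Pcdh1 and Pcdh15 had both sides covered in all 4 libraries, and Pcdh12 in both E14 libraries. Upstream, Pcdh10 had 22, 0, 0 and 0 bp covered. At E14 the upstream length was 980 and 0 bp for Pcdh20, and 0 bp in both libraries for Pcdh7. Within 3000 bp of the most upstream start sites, summed over the 10 genes, 13214, 11116, 9065 and 9119 bp were covered upstream and 17840, 14929, 12350 and 12004 bp downstream. Downstream exceeded upstream in each of the 4 libraries. For the clustered genes it did so at E14 (9035 and 8502 bp against 5963 and 5448 bp). These sums count a base for each gene it lies near, so a peak between neighbouring genes can count on both sides. At E17 their downstream length was the lower (890 and 665 bp against 2106 and 1613 bp), and all of it lay at Pcdhac2. That gene already had less downstream than upstream at E14 (2590 and 2411 bp against 3000 and 2871 bp), so its sides were not reversed.

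The Pcdha cluster had 2 marked genes, Pcdhac1 and Pcdhac2, the C-type genes nearest its constant exons, and its 12 alternate genes had no peak in any library. The 22 genes of the Pcdhb cluster, which have no constant exons, had none either, and no peak fell anywhere in the 259.5 kb from the first to the last of them. The Pcdhg cluster had 5 marked genes at E14 (23.8%, against 20.2% of all genes) and none at E17, and its C-type genes Pcdhgc3, Pcdhgc4 and Pcdhgc5 had no peak. In all, 48 of the 57 clustered genes (84.2%) had no peak in any library, against 73.4% of all genes.

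**Figure D4:**
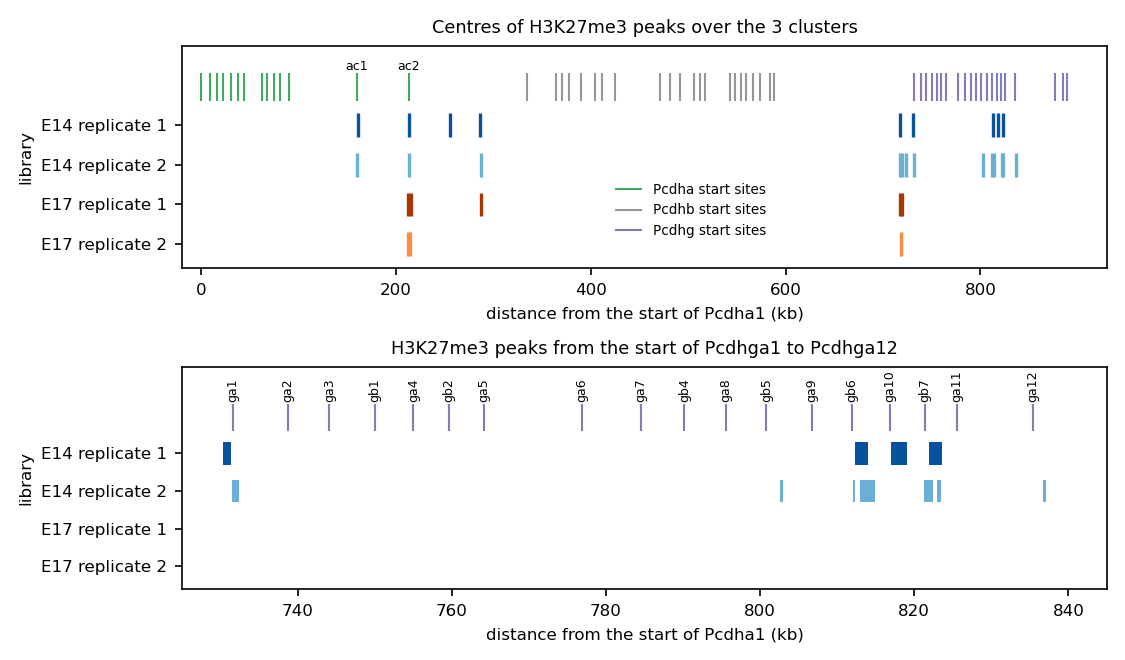
Peaks of the 4 libraries (rows) are placed by distance from the start of Pcdha1 (x axis, kb), with gene start sites as thin lines above. The top panel shows the centre of each peak over the 3 clusters as a tick of fixed width, and the bottom panel shows the peaks to scale from Pcdhga1 to Pcdhga12. Ticks in the Pcdha cluster fall at Pcdhac1, Pcdhac2 and, in E14 replicate 1, near the end of the cluster, none fall among the Pcdhb genes, and the E17 rows of the bottom panel are empty.

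Pcdhac2 was the one clustered gene marked at E17, a call that was lost with a −log10 q-value of at least 5. Its covered length was 5590, 5282, 2996 and 2278 bp, with a fold enrichment at percentiles 89.4, 83.4, 75.8 and 47.7. At E14 it had a peak of 5837 bp (chromosome 18, 37140256 to 37146092) and of 5282 bp (37140632 to 37145913). At E17 peaks of 2176 and 820 bp stood in replicate 1 and of 1613 and 665 bp in replicate 2, all within the E14 peaks. Its coding exon of 2562 bp was covered to 82.9%, 75.9%, 32.0% and 26.0%. Both E17 libraries were lower than both E14 libraries in length, rank and share of the exon.

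Pcdhac1 had 931, 1641, 0 and 0 bp covered, at percentiles 76.6 and 72.6 at E14. Its peak lay downstream of the start in replicate 1 (37090443 to 37091373) and across it in replicate 2 (37089213 to 37090853). At E17 the nearest peaks were the ones at Pcdhac2, 51.4 and 51.8 kb beyond the Pcdhac1 start.

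In the Pcdhg cluster 4 neighbouring genes, Pcdhgb6, Pcdhga10, Pcdhgb7 and Pcdhga11, were marked through a few peaks. In E14 replicate 1 there were 3 peaks, and each lay near a pair of genes. The first (37742491 to 37744174) was near Pcdhgb6 and Pcdhga10, the second (37747128 to 37749298) near Pcdhga10 and Pcdhgb7, and the third (37752106 to 37753764) near Pcdhgb7 and Pcdhga11. In E14 replicate 2 the shared peaks were 2, one (37743197 to 37745100) near Pcdhgb6 and Pcdhga10 and another (37753173 to 37753637) near Pcdhgb7 and Pcdhga11. Peaks of 362 and 1106 bp lay near Pcdhgb6 and Pcdhgb7 alone in that library.

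The start sites of Pcdhg genes are close together, with a median spacing of 5345 bp, and 14 of 20 neighbouring pairs have overlapping windows. This held for 2 of 13 pairs in Pcdha and 5 of 21 in Pcdhb. A peak could therefore count for 2 genes mainly in Pcdhg. The coding exon shows which gene a peak lay on. In Pcdhgb6 69.6% and 72.6% of the exon was covered at E14, and in Pcdhgb7 68.7% and 51.8%. In Pcdhga10 it was 87.3% and 0%, since the replicate 2 call came from the peak upstream of it that lay on Pcdhgb6. No base of the Pcdhga11 exon was covered in either library, and its call came from peaks lying on Pcdhgb7.

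The covered lengths of these genes were 1684, 2260, 0 and 0 bp for Pcdhgb6, and 2353, 1108, 0 and 0 bp for Pcdhga10. They were 2358, 1571, 0 and 0 bp for Pcdhgb7, and 1034, 465, 0 and 0 bp for Pcdhga11. The fold enrichment of their strongest peaks lay at percentiles 62.9 to 76.8 in replicate 1 and 61.6 to 64.1 in replicate 2. These genes were thus weakly marked next to all genes marked at E14, whose medians were 88.6 and 83.8.

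Pcdhga1 had 1048, 855, 0 and 0 bp covered, at percentiles 17.9 and 40.4. The peak lay upstream of its start in replicate 1 (37660495 to 37661542) and over and beyond it in replicate 2 (37661730 to 37662584), and the replicates did not overlap each other. Pcdhgb5 and Pcdhga12 had a peak in E14 replicate 2 alone, of 448 and 320 bp, at percentiles 7.93 and 4.56 of that list. Pcdhga9, which lies between Pcdhgb5 and Pcdhgb6, had its nearest peak 5122 and 3785 bp away at E14 and so was not marked.

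Counted by peaks, the clustered genes were near 6, 9, 2 and 2 peaks, of which 3, 2, 0 and 0 were near 2 genes, and none was near more than 2. Of the 6 peaks in E14 replicate 1, 4 overlapped a peak of E14 replicate 2, and in the other direction 6 of 9 did. The single genes were near 10, 11, 8 and 7 peaks, none shared between protocadherins, and 9 of 10 and 11 of 11 E14 peaks overlapped one of the other replicate. All E17 peaks near protocadherins overlapped a peak in each E14 library, for clustered and for single genes.

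Over the windows of all clustered genes, the covered length was 13083 and 12383 bp at E14 and 2996 and 2278 bp at E17, or 12733 ± 495 bp and 2637 ± 508 bp (SD, n = 2). The decrease was 79.3%, larger than the spread between replicates, with p = 0.333 in the exact permutation test, two-sided, again the smallest possible. All autosomal peaks together decreased by 59.2% in covered length, and the windows of all autosomal protein-coding genes by 46.1%. In the Pcdha windows 6521, 6923, 2996 and 2278 bp were covered, a decrease of 60.8%, and in the Pcdhg windows 6562, 5460, 0 and 0 bp. The difference between clustered and single genes in this decrease was not tested.

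From the start of the Pcdha cluster to the end of the Pcdhg cluster (chromosome 18, 36930184 to 37841873), peaks covered 2.08%, 1.89%, 0.683% and 0.402% of the sequence. The autosomes were covered to 2.13%, 1.26%, 0.805% and 0.575%, and chromosome 18 to 1.37%, 0.777%, 0.458% and 0.340%. The region was thus above its own chromosome in all 4 libraries, and above the autosomes in E14 replicate 2 alone. Outside the windows of the clustered genes a peak of 599 bp lay near the end of the Pcdha cluster in E14 replicate 1. Others lay between the Pcdha and Pcdhb clusters (1257, 625 and 619 bp in the first 3 libraries) and between the Pcdhb and Pcdhg clusters. The latter were present in all 4 libraries and, except in E17 replicate 2, included a peak within 3000 bp of a start site of Taf7, a subunit gene of the general transcription factor TFIID.

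The sequence around the start sites differed between the groups. The ratio of observed to expected CpG in the 1000 bp around the most upstream start had a median of 0.690 in single genes, 0.682 in Pcdha, 0.379 in Pcdhb and 0.596 in Pcdhg, with 0.569 over all genes. The Pcdhb genes, none of them marked, ranged from 0.158 to 0.520, below the median of all genes in every case. The Pcdha genes ranged from 0.564 to 0.748, and 12 of the 14 were unmarked. In number of CpG and GC content Pcdha was lower than the single genes (medians of 34.5 and 45.4% against 51 and 54.55%). All genes had medians of 43 and 55.1%. The marked Pcdhac1 and Pcdhac2 held 44 and 55 CpG, with 55.9% and 57.8% GC. In Pcdhg, Pcdhgc3 had no peak with 67 CpG and 58.1% GC. In Pcdhg the 7 genes with a peak in at least 1 library had a median of 0.657 and the 14 without a peak 0.587. Among single genes the median was 0.713 in the 5 marked in all 4 libraries, and the unmarked Pcdh9 and Pcdh18 stood at 0.662 and 0.669. Pcdh20 and Pcdh12, which had no peak at E17, were low at 0.402 and 0.224, but Pcdh7 was at 0.889. A high ratio was thus present both with and without peaks.

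**Figure D5:**
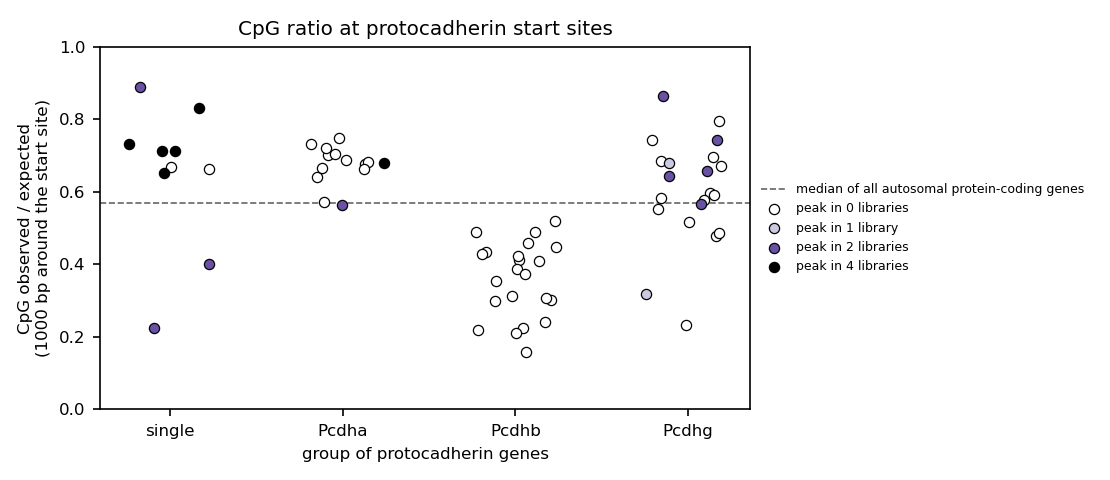
Each point is a protocadherin gene, with the ratio of observed to expected CpG in the 1000 bp around its most upstream start site (y axis) by group (x axis), and the fill gives the number of libraries in which it had a peak. The dashed line is the median of all autosomal protein-coding genes, 0.569. All Pcdhb points lie below the line, and unmarked points lie above it in the single, Pcdha and Pcdhg groups.

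Clustered protocadherins resemble each other in sequence, which can leave reads without a unique place. The start site windows were divided into 100 bp pieces and aligned to the reference, and 97.9% of the pieces of the clustered genes matched a single place, with 98.5% in Pcdhb. For single genes it was 99.3% and for all genes 95.5%. The lowest protocadherin was Pcdhb9 at 83.3%.

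The other cadherin superfamily genes gave a comparison. These were 49 autosomal genes of the classical cadherins, desmosomal cadherins, Fat, Dachsous, Celsr, calsyntenin and related groups, and 27, 27, 21 and 16 were marked in the 4 libraries (55.1%, 55.1%, 42.9% and 32.7%, against the 25.3%, 21.1%, 15.8% and 13.4% of all genes). Of the 25 marked in both E14 libraries, 5 had no peak at E17, a share near the 23.4% of all genes marked at E14. They were Dsc3 and Dsc2, the desmocollins of desmosomes, Cdh7, a classical cadherin of neural crest derivatives, Dchs1, a ligand of Fat4 in planar polarity, and Clstn3, a synaptic calsyntenin. Cdh1, the cadherin of epithelia, had a covered length of 6793, 6793, 5297 and 5529 bp at percentiles of 96.5 or above in all 4 libraries, close in level to Pcdh8. Cdh2, the cadherin of neurons and mesenchyme, had 0, 710, 1815 and 0 bp and was marked at neither stage. Cdh5, the cadherin of endothelium, and Cdh11, the cadherin of mesenchyme, had no peak. The median decrease in covered length was 53.3% in these genes, 24.6% in single and 100% in clustered protocadherins, and 57.7% over all genes marked at E14.

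Of 9 genes known to act on the clustered promoters, 2 had a peak in at least 1 E14 library, or 22.2% against 26.2% of all genes, so the count was close to the background. Setdb1, an H3K9 methyltransferase, had 830, 885, 0 and 0 bp covered, and Dnmt3b, a DNA methyltransferase, had 1127 bp in E14 replicate 1 alone. Ctcf and the cohesin genes Rad21 and Smc3, which loop enhancers to the promoters, had none. Wapl, Nipbl, Smchd1 and Trim28 had none either.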

How the data were processed

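H3K27me3 ChIP-seq peak lists of 4 libraries were used, 2 labelled E14 and 2 labelled E17. Per the labels, the submitters' processing notes name Bowtie2 2.3.5.1, SAMtools 1.9, MACS2 2.2.7.1 and deepTools 3.5.1 and the mm10 build (GRCm38). The authors called broad peaks per library at a q-value threshold of 0.01, without pooling. The deposited lists give each peak's fold enrichment (a ratio to local background), −log10 p-value and −log10 q-value. A score column was also deposited and not used. The control used for the peak call is not given in the sources used here, and the input library was not analysed here. The labels and the study's methods differ in medium, shearing and library kit.

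Start sites came from GENCODE vM21. Peaks were joined to windows of 3000 bp with Python 3.11.15, numpy 2.4.6 and pandas 2.3.3, and windows were aligned in 100 bp pieces with minimap2 2.31-r1302 (mapping quality of at least 30). Intersections were tested on simulated data. The exact permutation test of covered lengths was two-sided and ran over 3 splits. Named were all single genes, all clustered genes with a peak, genes sharing their peaks, Cdh1, Cdh2, Cdh5, Cdh11, the cadherins marked at E14 and without a peak at E17 (up to 5), and promoter regulators with a peak. The members and lists were chosen with earlier results of these data known.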

Additional observations from a re-analysis of the deposited data

How the results depend on the processing

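Each of 8 results (counts of marked genes and covered lengths, for clustered and single genes) was recomputed under 12 other settings, and the 2 covered lengths also with a replicate block. Of 98 values, 12 counts moved by more than 1.5 times, and the other 86 were counts within 1.5 times or covered lengths that decreased as before, with the test not passed. None changed direction. With a −log10 q-value of at least 5, the clustered genes marked at E14 went from 7 to 1 (Pcdhac2), and those marked at E17 from 1 to 0. The count without a peak at E17 went from 6 to 1, which is again Pcdhac2, since its E17 peaks dropped out and the 6 were no longer marked at E14. The single genes marked at E14 went from 8 to 5 and those without a peak at E17 from 3 to 0. With peaks of at least 1000 bp these counts were 4 and 3 for clustered genes and 5 and 0 for single genes. With lists of equal number (the 7107 peaks with the highest −log10 q-value of each) 4 clustered genes were marked at E14, 3 of them without a peak at E17, and 1 single gene was without a peak at E17. The counts of genes without a peak at E17 therefore depend on weak and narrow E14 peaks. Whether counts over all genes fall in the same way under these settings was not tested. The 5 single genes marked at E17 were 4 with a −log10 q-value of at least 5, where Pcdh15 fell out, and 5 in the other settings run.

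Leaving out each library in turn gave 7 to 9 clustered genes marked at E14, 6 to 8 without a peak at E17 and 1 marked at E17. The single genes gave 8, 3 and 5 each time. The decrease in covered length was 76.5% to 82.1% for clustered and 23.6% to 33.6% for single genes. With lists of equal number the decreases were smaller than these ranges, at 69.8% and 21.5%. With replicate numbers as a block the decreases were 79.4% and 28.7%, with p = 0.5 in an exact sign-flip test, the smallest that 2 pairs allow. The labels do not say that equal numbers share a litter or a day. The differences between replicates 1 and 2 at E14 and at E17 had a correlation of 0.328 across 20807 genes, which are not independent replicates.

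With 2 libraries a stage and no read counts, the exact tests used here cannot go below p = 0.333 (permutation) and p = 0.5 (sign-flip), and depth could not be separated from the length of a list.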

Other observations

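The X-linked protocadherins Pcdh11x and Pcdh19, which were not among the 67 autosomal genes, were without a peak in their start site windows (3000 bp on either side) in all 4 libraries.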
